A study of Danio rerio with 12 samples.

Results

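The genes described here are those whose level differed in the same direction in male and in female zebrafish livers after 6 weeks of daily β-estradiol. Of 9190 genes tested, 6078 (66.1%) had a difference of the same sign in both sexes, and 957 of these passed the test of the estradiol main effect. The fish were wild-type adults (Danio rerio) of either sex, and treatment began at 3 months post fertilization. There were 3 libraries each of estradiol males and estradiol females, set against 3 each of DMSO males and DMSO females, DMSO being the solvent. All fish lived in tanks of their own so that feeding could be controlled, and the labels do not say whether 1 library was made from 1 fish. The p-values therefore measure the spread between libraries, which may be technical. The study's title joins the estrogen receptor GPER1 and the PI3K/mTOR pathway to dimorphism between the sexes in how livers grow and form tumours. The question taken up here is what estradiol did to the liver whatever the sex of the fish.

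Estradiol is the main ovarian estrogen of fish. It acts through nuclear receptors, which bind DNA and change transcription, and through membrane receptors, which signal to kinases. In the liver of egg-laying fish it is known above all for turning on the synthesis and secretion of egg yolk proteins, a load on the folding machinery of the endoplasmic reticulum. Zebrafish livers lie close to the ovary, the gut and a scattered exocrine pancreas, so that dissected livers can carry transcripts of these organs.

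Expression was deposited as FPKM, fragments scaled to transcript length and library size. The sum over genes was 304905 to 1217095 in estradiol libraries and 660052 to 906620 in DMSO libraries. Across tested genes, pairs of libraries within a group had Spearman correlations of 0.472 to 0.832 in estradiol males and 0.612 to 0.819 in estradiol females, against 0.929 to 0.948 in DMSO males and 0.856 to 0.909 in DMSO females. The libraries did not all match a pure liver sample. The mean log2(FPKM + 1) of 45 ovary and oocyte genes was 5.18, 1.17 and 4.05 in estradiol males and 5.03, 0.121 and 3.44 in estradiol females, against 0.0534 to 0.266 in DMSO males and 1.14, 2.36 and 0.482 in DMSO females. Replicates 1 and 3 of both estradiol groups thus stood apart, males included, and are called oocyte-rich below. Fits without the oocyte-rich libraries keep only replicate 2 of each estradiol group, so what they call or lose rests on 1 estradiol library per sex. Beside each gene whose value is given with its error, the adjusted p without these 4 libraries follows where the call was lost. Genes of the exocrine pancreas averaged 1.39 to 4.64 under estradiol and 6.24 to 8.27 under DMSO, with no overlap. Genes of the intestine averaged 4.81 and 4.91 in DMSO female replicates 1 and 2, and 1.02 to 2.09 in the other 10 libraries. Hepatocyte genes averaged 8.23 to 10.8 under estradiol and 9.56 to 10.7 under DMSO, so that hepatocyte transcripts were abundant in every library. Their summed level was 16540 to 89800 FPKM under estradiol and 61540 to 137400 FPKM under DMSO. The median log2 change of the hepatocyte list was -1.24. Whether falls on the metabolic lists go beyond that of the hepatocyte list was not tested. The part that transcripts of other organs play in the results was not tested, apart from the fits given below.

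**Figure D1:**
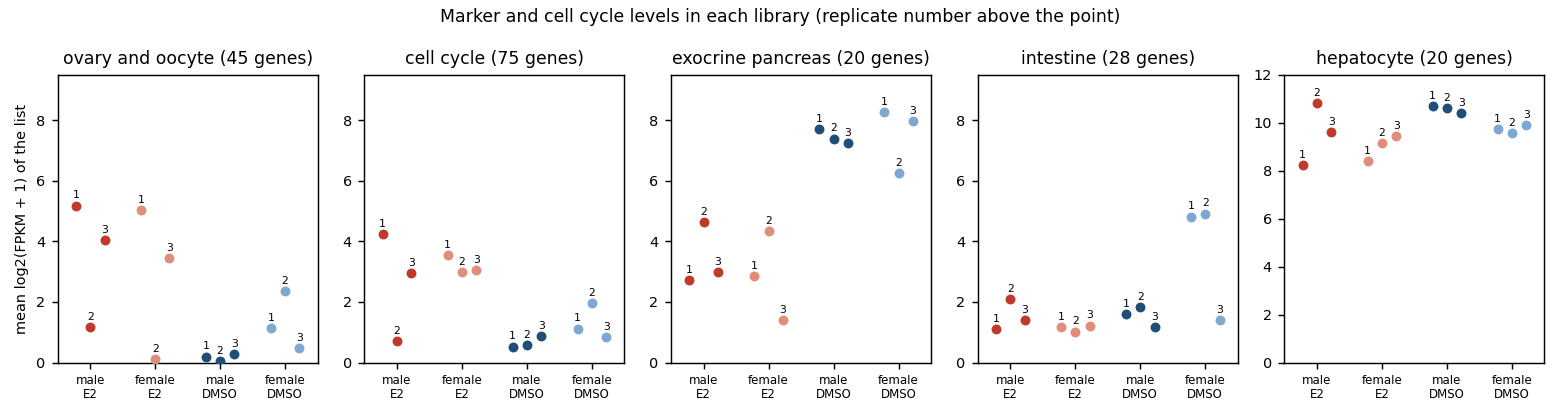
Mean log2(FPKM + 1) of the genes of 4 marker lists and of the cell cycle list (vertical axes) in each library, with estradiol (E2) groups left of DMSO groups and the replicate number above each point. Ovary and oocyte genes are high in replicates 1 and 3 of both estradiol groups, and exocrine pancreas genes are lower in all 6 estradiol libraries (1.39 to 4.64) than in all 6 DMSO libraries (6.24 to 8.27).

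A limma model of log2(FPKM + 1) with treatment and sex as terms was fitted to genes that reached 1 FPKM in 3 or more libraries. A gene was called at a Benjamini-Hochberg adjusted p under 0.05 for treatment, and "rose" and "fell" are used of such genes alone. The test called 959 genes, 10.4% of those tested, and the change had the same sign in males and females for all but 2 of them, vtg2 and pmepa1 (both listed at 0 in whole groups). Opposite changes of the sexes cancel in a main effect, so this agreement follows in large part from the test. At an unadjusted p under 0.05, 2973 genes passed. Of the 957 shared calls, 377 rose (4.1% of genes tested) and 580 fell (6.31%). Falls came from the more abundant genes: the median over the falling genes of the mean level was 33.3 FPKM under DMSO, and over the rising genes it was 6.02 FPKM under estradiol. The median log2 change was 1.54 for the rises and -1.64 for the falls, and 0.05 over all genes tested. A log2 change below -3 was reached by 72 of the falls and one above 3 by 18 of the rises. In bulk tissue, fewer cells of a type and less RNA per cell cannot be told apart.

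The falls separated the treatments more cleanly than the rises. All 6 estradiol libraries lay below all 6 DMSO libraries for 279 of the 580 falling genes, against 314 of all genes tested (3.42%). All 6 lay above for 83 of the 377 rising genes, against 112 of all genes tested (1.22%). These counts use the contrast that also made the calls, and are given as a description. Contrasts within 1 sex, taken from a fit of 4 group means, called 348 genes in males (3.79%) and 251 in females (2.73%). Of the shared calls, 253 were also called within males, 190 within females and 95 within both, of which 91 fell and 4 rose. For 609 shared calls neither sex reached the threshold alone. The number of calls moved with single libraries. It was 2501 once male estradiol replicate 2 was left out and 1689 once female estradiol replicate 2 was, the 2 estradiol libraries poor in oocyte transcripts. It was 610 or 534 with male estradiol replicate 1 or 3 left out. With male DMSO replicate 1, 2 or 3 left out it was 402, 479 or 611. With female DMSO replicate 1 or 3 left out it was 455 or 477. Without the 4 oocyte-rich libraries 233 shared calls were made, 67 up and 166 down, of which 175 belong to the 957. That fit, with its own filter on low values, could test all 580 falling genes but 217 of the 377 rising genes. On the genes that passed the filter over all 12 libraries, an alternative added after the data were seen, it made 216 shared calls, 67 up and 149 down. Scaling changed the balance: after the 6 vitellogenins and the 10 highest genes were taken out of the library totals, 332 genes rose and 208 fell (61.5% rising), and the median over all genes moved to 0.39.

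**Figure D2:**
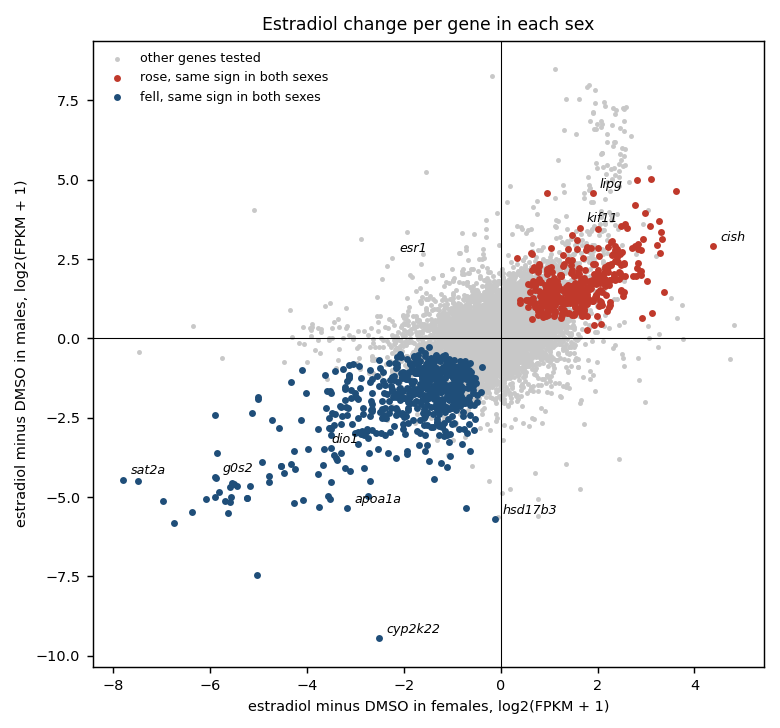
Change in log2(FPKM + 1), estradiol minus DMSO, in females (horizontal axis) and males (vertical axis) for each gene tested. Of the shared calls, 370 rises are red and 575 falls blue, and other genes are grey; 46 genes listed at 0 in a whole group and at 1 FPKM or more in all of another are left out.

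The male and the female comparison share no library, so genes called in 1 sex were looked up in the other. Here each sex was fitted alone, which called 220 genes in males and 267 in females. Of 155 genes that fell in males, 86.5% were lower under estradiol in females too, against 54.1% of all genes tested. All 3 estradiol females lay below all 3 DMSO females for 71.6% of them, against 18.8% of all genes. Of 177 genes that fell in females, 88.7% were lower in estradiol males, against 40.6% of all genes, and 51.4% did not overlap there, against 11.4% of all genes. The falls called in both sexes numbered 45, which is 29% of the male list and 25.4% of the female list. Markers of the exocrine pancreas were 18 of the 155 male falls and 12 of the 177 female falls. The male and the female comparison need not be independent. Deviations from the group mean ran together in same-numbered estradiol males and females for replicates 1 and 2 (r of 0.494 and 0.573), though not for replicate 3 (0.009).

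In the main setting, rises were mostly shared in direction. How many cleared the spread of the other sex depended on the libraries and settings. Of 65 genes that rose in males, 78.5% were higher in estradiol females, against 45.7% of all genes, but 10.8% did so without overlap, against 9.98% of all genes. Of 90 genes that rose in females, 94.4% were higher in estradiol males, against 59.4% of all genes, and 17.8% did not overlap, against 18.5%. Only 2 rises were called in both sexes. Markers of the ovary were 6 of the 65 male rises. The share of male rises without overlap in females was 32.4% with quantile normalization, against 13.2% of all genes, and 30.6% after rescaling of the libraries, against 17.3%. With a pseudocount of 0.1 it was 8.23% against 9.98%, and with a filter of 5 FPKM 8% against 7.61%. With 1 male library left out of the male fit it was 20 to 33.3% against the same 9.98%. The longest of these lists, without male estradiol replicate 2, had 24.1% of 1812 genes. Without male DMSO replicate 1, 2 or 3 the lists held 6, 10 and 6 genes. Of these, 33.3%, 30% and 33.3% were higher in estradiol females, against 45.7% of all genes.

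**Figure D3:**
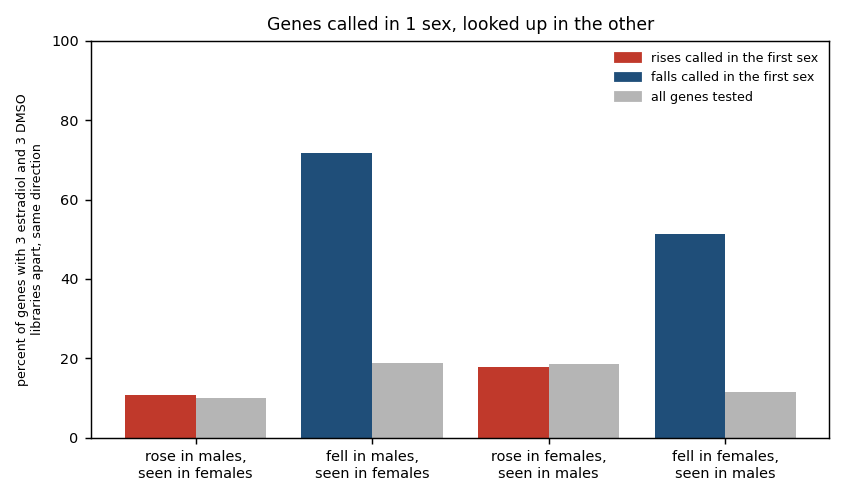
Percent of genes (vertical axis) whose 3 estradiol libraries all lie beyond the 3 DMSO libraries of 1 sex, in the direction called in the other sex. Coloured bars are the genes called in the first-named sex (65 rises and 155 falls in males, 90 rises and 177 falls in females), grey bars all genes tested. Falls stand above their grey bars (71.6% and 51.4%), and rises lie close to theirs (10.8% against 9.98%, and 17.8% against 18.5%).

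Among genes named by rule for large falls without overlap, with clone names and organ markers set aside, the largest fall was that of sat2a. This gene is of the spermidine/spermine acetyltransferase family, which tags polyamines for export or breakdown. It had 9.86, 28.5 and 18.4 FPKM in estradiol males and 0.215, 0.406 and 0.0624 FPKM in estradiol females, against 645, 286 and 350.1 FPKM in DMSO males and 285, 182 and 379.6 FPKM in DMSO females. Every estradiol library was below every DMSO library, and the 3 estradiol females were the lowest of all. The log2 change was -6.12 ± 0.56 (SE; adjusted p = 8.07e-05). The polyamine regulators oaz1a, the antizyme that steers ornithine decarboxylase to degradation, and azin1b, an antizyme inhibitor, also fell. Antizyme oaz1a had 78.0 to 216 FPKM (median 112) under estradiol, against 219 to 408 FPKM (median 317) under DMSO, a log2 change of -1.41 ± 0.31 (SE; adjusted p = 0.0159, and 0.178 without the oocyte-rich libraries). The inhibitor azin1b had 25.4 to 108 FPKM (median 40.5) under estradiol, against 88.4 to 174 FPKM (median 107) under DMSO, with a log2 change of -1.40 ± 0.33 (SE; adjusted p = 0.0221, and 0.272 without the oocyte-rich libraries). Its call was lost without any 1 of 4 libraries (adjusted p up to 0.0596, without male DMSO replicate 1). These 3 were the called members of 13 polyamine genes tested (23.1%, against 10.4% of all genes), whose median log2 change was -0.76. By sex the median was 0.06 in males and -0.86 in females. The change had the same sign in both sexes for 6 of the 13, against 66.1% of all genes tested.

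Genes of lipid storage and transport held several of the largest falls. The gene g0s2, an inhibitor of the main triglyceride lipase of lipid droplets, had 14.2, 72.5 and 34.0 FPKM in estradiol males and 18.3, 6.32 and 8.56 FPKM in estradiol females, against 519.6, 507 and 1310.1 FPKM in DMSO males and 335, 1074 and 799 FPKM in DMSO females. The groups did not overlap, and the log2 change was -5.14 ± 0.50 (SE; adjusted p = 8.54e-05). The gene listed as zgc:193616, which RefSeq names thrsp and which is known in mammals as a thyroid hormone-responsive regulator of lipogenesis, had 133, 10.5 and 90.5 FPKM in estradiol males and 2.34, 1.75 and 69.4 FPKM in estradiol females, against 4460.0, 15983 and 10511 FPKM in DMSO males and 276, 178 and 451 FPKM in DMSO females. DMSO males were far above DMSO females, yet each sex was lower under estradiol, with a log2 change of -6.24 ± 0.87 (SE; adjusted p = 0.000969). The acyltransferase dgat2, which makes triglyceride, had 1.02 to 12.5 FPKM (median 8.22) under estradiol, against 18.1 to 99.8 FPKM (median 53.3) under DMSO, a log2 change of -2.72 ± 0.45 (SE; adjusted p = 0.00314, and 0.0579 without the oocyte-rich libraries).

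Of 33 genes of fatty acid and triglyceride synthesis 6 fell and 1 rose, with a median log2 change of -0.57. The share called was 21.2%, against 10.4% of all genes tested. The falls also included acaca, dgat1a and pgd, named here after their values were seen. The rise was slc25a1a, the mitochondrial carrier that exports citrate for lipid synthesis. It had 14.1, 3.06 and 6.69 FPKM in estradiol males and 7.54, 3.71 and 3.74 FPKM in estradiol females, against 0, 0.242 and 0.141 FPKM in DMSO males and 0.608, 0.868 and 0.614 FPKM in DMSO females. All 6 estradiol libraries were above all 6 DMSO libraries, and DMSO males were the lowest, with a log2 change of 2.28 ± 0.34 (SE; adjusted p = 0.00137). Without the 4 oocyte-rich libraries the list held 3 falls. There slc25a1a did not pass the filter on low values, and with the filter over all 12 libraries its log2 change was 1.67 (adjusted p = 0.00934).

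Lipoprotein genes moved in both directions. The main protein of high-density lipoprotein, apoa1a, had 208, 272 and 168 FPKM in estradiol males and 511, 874 and 369.8 FPKM in estradiol females, against 9955, 8807 and 7388 FPKM in DMSO males and 5561, 7014 and 3111 FPKM in DMSO females. Estradiol libraries lay below DMSO libraries without overlap, further so in males, and the log2 change was -4.26 ± 0.44 (SE; adjusted p = 0.000127). The cholesteryl ester transfer protein gene cetp had 4.57 to 31.0 FPKM (median 14.0) under estradiol, against 35.2 to 235 FPKM (median 101) under DMSO, a log2 change of -2.56 ± 0.49 (SE; adjusted p = 0.00797). The gene listed as zgc:193682, apoc4 in RefSeq and an apolipoprotein gene, had 15.8 to 609 FPKM (median 275) under estradiol, against 689 to 2640.2 FPKM (median 1108) under DMSO, a log2 change of -2.73 ± 0.56 (SE; adjusted p = 0.0107).

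Against these falls stood lipg, endothelial lipase, an enzyme that acts on high-density lipoprotein. It had 76.0, 52.8 and 39.0 FPKM in estradiol males and 23.1, 14.9 and 52.7 FPKM in estradiol females, against 0.158, 2.45 and 2.11 FPKM in DMSO males and 4.95, 6.79 and 7.54 FPKM in DMSO females. All estradiol libraries were above all DMSO libraries, and the change was larger in males, whose DMSO level was lower. Its log2 change was 3.23 ± 0.52 (SE; adjusted p = 0.00254, and 0.0787 without the oocyte-rich libraries). In all, 6 of 20 genes of lipoproteins and their handling fell and 1 rose, with a median of -0.36. The share called was 35%, against 10.4% of all genes tested. Among the falls apoa4b.1, also on the intestine list, lost its call without any 1 of 9 libraries (adjusted p up to 0.103, without male DMSO replicate 2), and adjusted p was 0.368 without the oocyte-rich libraries.

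Genes of sterol export and bile acid handling fell in part. The partner transporters abcg5 and abcg8, which together secrete cholesterol into bile, both fell. The first, abcg5, had 1.35, 3.58 and 5.79 FPKM in estradiol males and 0.252, 1.58 and 1.29 FPKM in estradiol females, against 25, 16.5 and 23.8 FPKM in DMSO males and 11.9, 16.5 and 22.7 FPKM in DMSO females. The groups did not overlap in either sex, and the log2 change was -2.80 ± 0.33 (SE; adjusted p = 0.000355). Its partner abcg8 had 0.468 to 14.3 FPKM (median 2.58) under estradiol, against 15 to 51.7 FPKM (median 29.9) under DMSO, a log2 change of -2.91 ± 0.37 (SE; adjusted p = 0.000564). The acyl-CoA synthetase slc27a2a, which activates very long fatty acids and bile acids, had 11.2, 32.1 and 50.7 FPKM in estradiol males and 15.7, 44.8 and 57.6 FPKM in estradiol females, against 593, 496 and 419 FPKM in DMSO males and 323, 231 and 379 FPKM in DMSO females. No estradiol library reached a DMSO library, and the log2 change was -3.64 ± 0.43 (SE; adjusted p = 0.000355). The bile acid hydroxylase family gene cyp8b2 had 0 to 0.436 FPKM (median 0.297) under estradiol, against 0.939 to 5.20 FPKM (median 2.81) under DMSO, a log2 change of -1.50 ± 0.24 (SE; adjusted p = 0.00266, and 0.0627 without the oocyte-rich libraries). Of 22 genes on this list 7 fell and none rose (median -1.28), and 4 fell without the oocyte-rich libraries. The count was 5 without male DMSO replicate 1 or without female DMSO replicate 1, and 11 without male estradiol replicate 2. Over all 12 libraries the share called was 31.8%, against 10.4% of all genes tested.

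Breakdown of amino acids was the metabolic list with the largest share of falls, 30 of 71 genes, with 1 rise (gls2b). The median log2 change was -1.13, against 0.05 for all genes and -1.24 for the hepatocyte list. The share called was 43.7%, against 10.4% of all genes tested and 40% of the hepatocyte list. The oxidase dao.3, which acts on D-amino acids, had 2.97, 0.522 and 3.56 FPKM in estradiol males and 0, 0.949 and 1.12 FPKM in estradiol females, against 78.5, 49.9 and 27.4 FPKM in DMSO males and 22.1, 31.8 and 66.5 FPKM in DMSO females. The highest estradiol value was far below the lowest DMSO value, and the log2 change was -4.27 ± 0.40 (SE; adjusted p = 8.07e-05). Glycine decarboxylase gldc, of the glycine cleavage system, had 41.2, 41.1 and 23.2 FPKM in estradiol males and 24.3, 23.4 and 36.6 FPKM in estradiol females, against 224, 205 and 150.0 FPKM in DMSO males and 116, 96.7 and 119.6 FPKM in DMSO females. Its groups did not overlap either, with a log2 change of -2.21 ± 0.27 (SE; adjusted p = 0.000422). Cystathionine beta-synthase cbsa had 14.4 to 31.5 FPKM (median 21.6) under estradiol, against 67.5 to 159.8 FPKM (median 116) under DMSO, a log2 change of -2.2 ± 0.28 (SE; adjusted p = 0.000581). The tyrosine-degrading dioxygenase hpda had 104 to 885 FPKM (median 272) under estradiol, against 831 to 2837 FPKM (median 1824) under DMSO. Its ranges overlapped, with DMSO females lower than DMSO males, and the log2 change was -2.42 ± 0.35 (SE; adjusted p = 0.00126), with -2.42 in each sex.

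Other falls on this list, named after their values were seen, were pah and tdo2a, which start phenylalanine and tryptophan breakdown, and the aminotransferases got1 and agxtb. In males the median of the list was -1.62 and in females -0.62. The number of falls was 12 without male DMSO replicate 1 and 35 without male estradiol replicate 2, and 11 without the 4 oocyte-rich libraries. With the level of the ovary list as a covariate it was 5.

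Genes of fuel metabolism fell in part. Of 43 genes of fatty acid oxidation and ketone bodies 13 fell and none rose, with a median of -0.95. The share called was 30.2%, against 10.4% of all genes tested. The carnitine palmitoyltransferase gene cpt1b, which admits fatty acids to mitochondria, had 0.0507, 0.171 and 0.120 FPKM in estradiol males and 0.350, 0.0543 and 0.225 FPKM in estradiol females, against 58.4, 4.08 and 7.29 FPKM in DMSO males and 17.6, 1.26 and 4.27 FPKM in DMSO females. Every estradiol value was below 1 FPKM, while DMSO values spread widely, and the log2 change was -2.97 ± 0.60 (SE; adjusted p = 0.0106, and 0.163 without the oocyte-rich libraries). The peroxisomal oxidation enzyme ehhadh had 9.09 to 30.9 FPKM (median 14.1) under estradiol, against 32.7 to 91.0 FPKM (median 62.9) under DMSO, a log2 change of -1.87 ± 0.31 (SE; adjusted p = 0.00316). The thiolase acat1 had 15.6 to 33.6 FPKM (median 24.6) under estradiol, against 33.8 to 127 FPKM (median 65.5) under DMSO, a log2 change of -1.36 ± 0.28 (SE; adjusted p = 0.0114, and 0.124 without the oocyte-rich libraries). The count of falls was 6 without male DMSO replicate 1 or 2, and 19 without male or female estradiol replicate 2. Without the 4 oocyte-rich libraries 1 gene of this list fell.

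Of 45 genes of glycolysis, gluconeogenesis and glycogen 9 fell and none rose, with a median of -0.96. The share called was 20%, against 10.4% of all genes tested. Fructose bisphosphatase fbp1b, a gluconeogenic enzyme, had 105, 185 and 246 FPKM in estradiol males and 129, 289.9 and 384 FPKM in estradiol females, against 2231, 1652 and 1459 FPKM in DMSO males and 542, 787 and 800.1 FPKM in DMSO females. All estradiol libraries lay below all DMSO libraries, with the widest gap in males, and the log2 change was -2.45 ± 0.42 (SE; adjusted p = 0.0044). Phosphoglycerate mutase pgam1a had 36.6 to 169.9 FPKM (median 40.5) under estradiol, against 259 to 344 FPKM (median 295) under DMSO, a log2 change of -2.46 ± 0.36 (SE; adjusted p = 0.00127, and 0.0558 without the oocyte-rich libraries). Triosephosphate isomerase tpi1b had 41.8 to 163 FPKM (median 108) under estradiol, against 249 to 508 FPKM (median 346) under DMSO, a log2 change of -1.76 ± 0.34 (SE; adjusted p = 0.00878). The falls numbered 6 without male DMSO replicate 1 or 2, 19 without male estradiol replicate 2 and 4 without the oocyte-rich libraries.

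**Figure D4:**
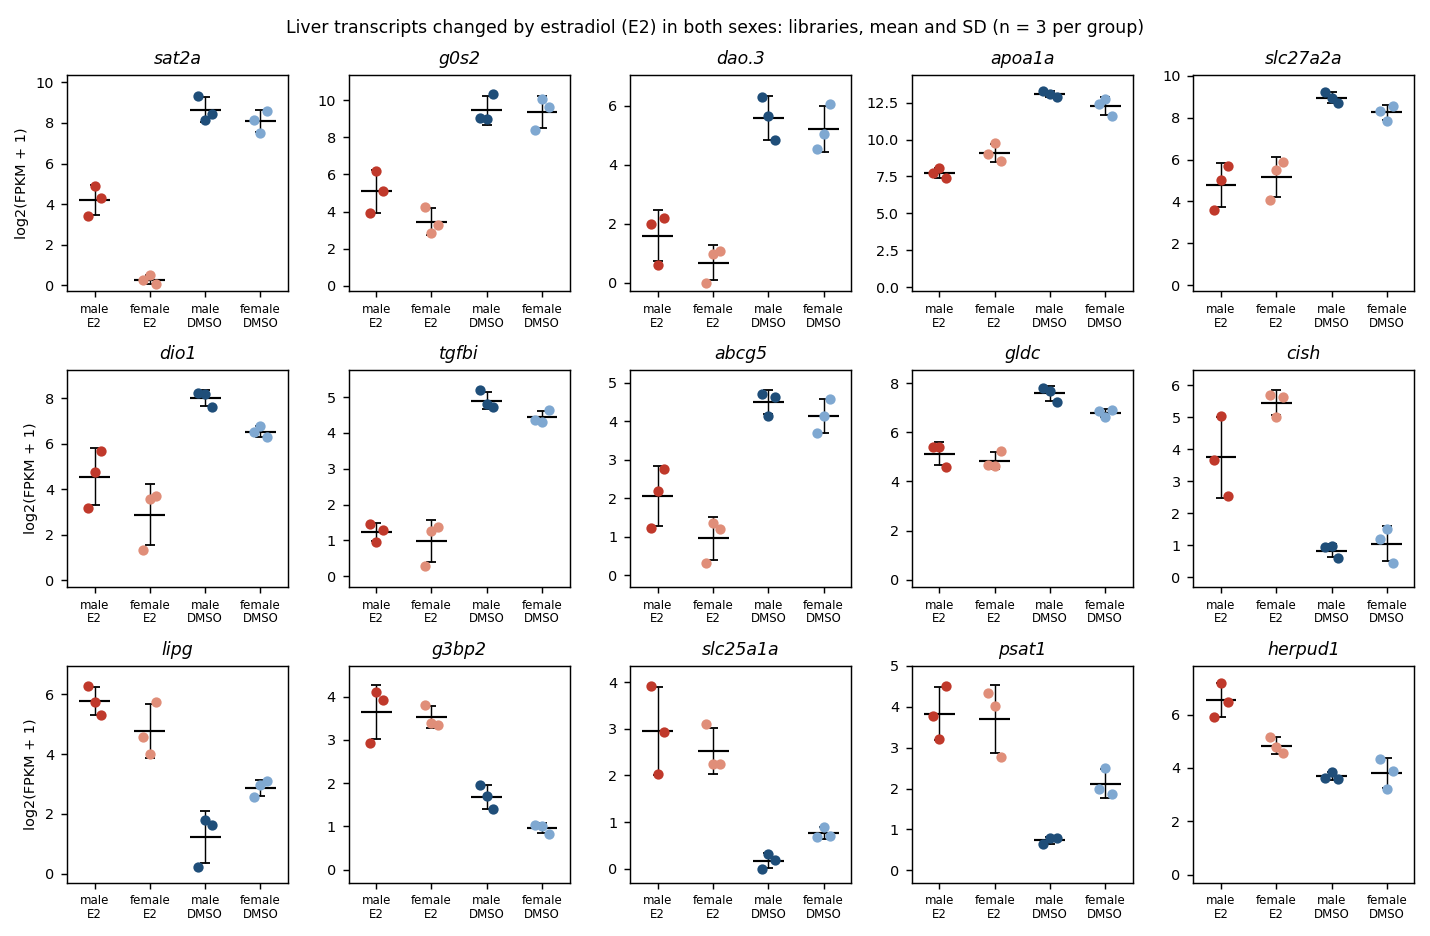
Levels of 15 genes as log2(FPKM + 1) (vertical axes) in every library, estradiol (E2) groups left of DMSO groups, with the mean and SD of each group of 3. The first 9 genes, from sat2a to gldc, lie lower under estradiol in both sexes and the last 6, from cish to herpud1, lie higher.

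Enzymes that modify drugs, alcohols and steroids formed the longest list of falls, 32 of 94 genes, with 4 rises and a median of -0.94. The share called was 38.3%, against 10.4% of all genes tested. The glutathione transferase gstal had 8.66, 10.3 and 26.5 FPKM in estradiol males and 4.87, 14.4 and 14.4 FPKM in estradiol females, against 137, 75.6 and 136 FPKM in DMSO males and 87.7, 61.7 and 83.7 FPKM in DMSO females. The groups did not overlap, and the log2 change was -2.89 ± 0.35 (SE; adjusted p = 0.000431). Glucuronosyltransferase ugt1a5 had 0 to 2.69 FPKM (median 0.975) under estradiol, against 9.31 to 42.6 FPKM (median 13.2) under DMSO, a log2 change of -2.95 ± 0.36 (SE; adjusted p = 0.000422). The sulfotransferase sult1st3 had 1.86 to 36.1 FPKM (median 8.80) under estradiol, against 38.5 to 112 FPKM (median 67.7) under DMSO, a log2 change of -2.71 ± 0.39 (SE; adjusted p = 0.00111). The alcohol dehydrogenase adh8a had 3.42 to 434 FPKM (median 124) under estradiol, against 1091 to 2184 FPKM (median 1765) under DMSO, a log2 change of -4.57 ± 0.91 (SE; adjusted p = 0.0097). The difference was -4.35 in males and -4.79 in females, with a wide spread under estradiol. The related enzyme adh5, which also clears formaldehyde, had 21.4 to 142 FPKM (median 69.6) under estradiol, against 194 to 342 FPKM (median 252) under DMSO, a log2 change of -2.04 ± 0.31 (SE; adjusted p = 0.00161). The 4 rises, named after their values were seen, were cyp2p10, cyp2p8, cyp2k16 and aldh3b1. The falls numbered 22 without female DMSO replicate 1 and 41 without male estradiol replicate 2, and 16 without the 4 oocyte-rich libraries.

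Secreted plasma proteins and carriers fell in part. Of 22 genes tested, coagulation and complement aside, 7 fell and 1 rose (median -1.10). The share called was 36.4%, against 10.4% of all genes tested, and 1 gene of the list was listed at 0 in a whole group. The gene listed as si:ch73-252g14.4, ahsg2 in RefSeq and a fetuin family gene, had 54.6, 59.18 and 254 FPKM in estradiol males and 3.14, 13.1 and 18.9 FPKM in estradiol females, against 3632, 3531 and 2885 FPKM in DMSO males and 1375, 1094 and 1549 FPKM in DMSO females. The drop left no overlap, and the log2 change was -6.06 ± 0.52 (SE; adjusted p = 7.47e-05). The liver fatty acid-binding protein gene fabp10a, a hepatocyte marker, had 6559.8 to 15596 FPKM (median 10658) under estradiol, against 32209.5 to 82284 FPKM (median 59353) under DMSO, a log2 change of -2.34 ± 0.38 (SE; adjusted p = 0.00261). The antimicrobial peptide gene leap2, listed as zgc:194626, had 0 to 9.45 FPKM (median 1.88) under estradiol, against 10.6 to 108 FPKM (median 43.3) under DMSO, a log2 change of -3.91 ± 0.54 (SE; adjusted p = 0.000847). The carboxylesterase ces3, on the hepatocyte list, had 5.71 to 163 FPKM (median 46.7) under estradiol, against 209.5 to 865 FPKM (median 466) under DMSO, a log2 change of -3.31 ± 0.43 (SE; adjusted p = 0.000564). In that hepatocyte list 7 of 20 genes fell and 1 rose (40% called, against 10.4% of all genes tested, median -1.24). The list had 1 gene listed at 0 in a whole group. It held 3 falls and a median of -0.55 without the oocyte-rich libraries, 5 falls without female DMSO replicate 3 and 16 without male estradiol replicate 2.

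Clotting and complement genes showed fewer calls, 9.09% and 10% of those tested, near the 10.4% of all genes. Of 22 coagulation genes 2 fell, f9a and f7, and of 30 complement genes 3 fell, masp2, c1s and c8a. Coagulation factor f9a had 3.43 to 19.1 FPKM (median 8.39) under estradiol, against 25.8 to 55.9 FPKM (median 33.4) under DMSO, a log2 change of -1.96 ± 0.34 (SE; adjusted p = 0.00424), and it was called without each library in turn. The calls of f7, masp2, c1s and c8a, with log2 changes of -1.39, -1.66, -1.55 and -1.32, were lost without any 1 of 9 or 10 libraries. Their adjusted p then reached 0.102, 0.0842, 0.0988 and 0.107. Without the oocyte-rich libraries it was 0.216, 0.356, 0.425 and 0.276. The list medians of -0.94 and -0.72 became 0.12 and 0.04 without the 4 oocyte-rich libraries, a change of sign. Of the estradiol libraries then left, male replicate 2 lay above all DMSO libraries in mean log2 level. It had 7.23 against 5.48 to 6.58 for coagulation and 6.61 against 4.79 to 6.06 for complement. Female replicate 2 lay below all DMSO libraries, at 5.19 and 4.63.

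Of 11 thyroid hormone genes tested 2 fell, dio1 and the thrsp gene given above, and none rose. The share called was 18.2%, against 10.4% of all genes tested. The list's median log2 change was -0.04, -0.61 in males and 0.54 in females. Type 1 deiodinase dio1, which activates thyroid hormone, had 8.13, 26.1 and 49.8 FPKM in estradiol males and 1.52, 10.9 and 12.2 FPKM in estradiol females, against 303, 289 and 194 FPKM in DMSO males and 89.3, 109.6 and 77.4 FPKM in DMSO females. Each sex was lower under estradiol without overlap, and the log2 change was -3.56 ± 0.47 (SE; adjusted p = 0.000691), with -3.47 in males and -3.65 in females. The IGF-binding protein genes igfbp2a and igfbp2b, whose products hold insulin-like growth factors in the circulation, also fell. The first had 17.2 to 67.1 FPKM (median 48.5) under estradiol, against 78.3 to 333 FPKM (median 187) under DMSO, a log2 change of -2.11 ± 0.41 (SE; adjusted p = 0.00867, and 0.0689 without the oocyte-rich libraries), and the second 0 to 5.67 FPKM (median 4.68) under estradiol, against 6.99 to 46.4 FPKM (median 20.3) under DMSO, a log2 change of -2.36 ± 0.47 (SE; adjusted p = 0.01, and 0.0717 without the oocyte-rich libraries). Another binding protein gene, igfbp3, rose by 1.23 ± 0.31 (SE; adjusted p = 0.0262) on the log2 scale, with 1.78 to 6.86 FPKM (median 4.40) under estradiol, against 0.435 to 2.36 FPKM (median 1.27) under DMSO. Its call was lost without any 1 of 4 DMSO libraries (adjusted p up to 0.0707, without male DMSO replicate 1).

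The clearest rise was that of cish, a cytokine-induced inhibitor of STAT5 signalling from growth hormone and related receptors. It had 11.7, 32.1 and 4.78 FPKM in estradiol males and 51.3, 30.9 and 48.6 FPKM in estradiol females, against 0.915, 0.966 and 0.517 FPKM in DMSO males and 1.29, 1.87 and 0.366 FPKM in DMSO females. All 6 estradiol libraries exceeded all 6 DMSO libraries, estradiol females most evenly, and the log2 change was 3.65 ± 0.43 (SE; adjusted p = 0.000355), with 2.91 in males and 4.39 in females. With cish and igfbp3, 2 of 25 genes of growth hormone, IGF and SOCS signalling rose and 3 fell (median -0.37). The share called was 20%, against 10.4% of all genes tested. Without the 4 oocyte-rich libraries the same list held 5 rises and no fall, with a median of 0.17, and the log2 change of cish was 4.08 (adjusted p = 0.002).

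Other large rises were those of single genes with unlike roles. The stress granule protein gene g3bp2 had 6.65, 16.2 and 14.1 FPKM in estradiol males and 13.1, 9.55 and 9.23 FPKM in estradiol females, against 2.90, 2.24 and 1.64 FPKM in DMSO males and 1.04, 1.02 and 0.771 FPKM in DMSO females. No estradiol library was within the DMSO range, and the log2 change was 2.27 ± 0.27 (SE; adjusted p = 0.000355). The nucleosome-binding protein gene hmgn3 had 6.32 to 69.1 FPKM (median 19.5) under estradiol, against 1.07 to 5.01 FPKM (median 2.17) under DMSO, a log2 change of 2.64 ± 0.47 (SE; adjusted p = 0.00509). Heme synthesis enzyme urod had 5.27 to 39.5 FPKM (median 10.19) under estradiol, against 2.47 to 3.87 FPKM (median 3.33) under DMSO, a log2 change of 1.70 ± 0.34 (SE; adjusted p = 0.0105). The survival factor mcl1a, of the BCL2 family, had 65.9 to 363 FPKM (median 126) under estradiol, against 26.4 to 51.6 FPKM (median 40.7) under DMSO, a log2 change of 1.82 ± 0.42 (SE; adjusted p = 0.0195, and 0.108 without the oocyte-rich libraries). The GTP-binding protein gene gtpbp1 rose by 1.60 and the Mediator subunit med27 by 1.58 ± 0.41 (SE; adjusted p = 0.031, and 0.262 without the oocyte-rich libraries) on the log2 scale. The med27 call was lost without any 1 of 7 libraries (adjusted p up to 0.0746, without female DMSO replicate 1).

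Chaperones and quality control of the endoplasmic reticulum rose in part, 8 of 67 genes with 1 fall (13.4% called, against 10.4% of all genes tested). The median log2 change of the list was 0.15, 0.57 in males and -0.06 in females. The gene herpud1, which links misfolded proteins to the degradation complex, had 59.5, 146 and 88.9 FPKM in estradiol males and 35.2, 26.5 and 22.5 FPKM in estradiol females, against 11.4, 13.5 and 11 FPKM in DMSO males and 19, 8.31 and 13.6 FPKM in DMSO females. Estradiol lay above DMSO without overlap over all 12 libraries, by 2.85 in males and 1.03 in females, and the log2 change was 1.94 ± 0.38 (SE; adjusted p = 0.00924, and 0.067 without the oocyte-rich libraries). The chaperone hsp90b1, the HSP90 of this compartment, had 308, 2136 and 442 FPKM in estradiol males and 423, 835 and 237 FPKM in estradiol females, against 98.5, 166 and 100.3 FPKM in DMSO males and 165, 125 and 188 FPKM in DMSO females. All estradiol libraries were again above all DMSO libraries, with the highest value in male estradiol replicate 2. Its log2 change was 1.98 ± 0.48 (SE; adjusted p = 0.0246), and adjusted p was 0.0638 without male DMSO replicate 1 and 0.055 without male DMSO replicate 3. The disulfide isomerase family gene pdip5 had 97.0 to 829 FPKM (median 151) under estradiol, against 18 to 65.0 FPKM (median 38.6) under DMSO, a log2 change of 2.2 ± 0.49 (SE; adjusted p = 0.0173, and 0.07 without the oocyte-rich libraries). The prolyl isomerase gene fkbp14 had 1.94 to 6.47 FPKM (median 2.99) under estradiol, against 0 to 0.673 FPKM (median 0.314) under DMSO, a log2 change of 1.73 ± 0.30 (SE; adjusted p = 0.0044).

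The ubiquitin ligase syvn1, the core of the degradation complex, had 18.1 to 57.3 FPKM (median 39.1) under estradiol, against 10.8 to 21.4 FPKM (median 13.7) under DMSO, a log2 change of 1.32 ± 0.28 (SE; adjusted p = 0.0128). The other rises, named after their values were seen, were derl2, derl3 and pdia4. The single fall was pdia2, a disulfide isomerase that is abundant in the human pancreas. It had 0.0170 to 0.870 FPKM (median 0.197) under estradiol, against 3.82 to 10.24 FPKM (median 5.64) under DMSO, a log2 change of -2.34 ± 0.26 (SE; adjusted p = 0.000266), beside the lower pancreas genes of the estradiol libraries. Without the 4 oocyte-rich libraries the median of the list was 0.70, and the log2 change of hsp90b1 was 3.29. Of the estradiol libraries then left, male replicate 2 had a mean log2 level of 6.86 for this list and female replicate 2 had 5.6. The DMSO libraries had 4.83 to 5.54. Rises numbered 4 without male DMSO replicate 1 or 3 and 10 without female estradiol replicate 3.

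On the list of serine, one-carbon and amino acid synthesis 3 of 28 genes rose and 1 fell (median 0.43). The share called was 14.3%, against 10.4% of all genes tested. The enzymes psat1 and phgdh, which make serine from a glycolytic intermediate, had log2 changes of 2.34 ± 0.38 (SE; adjusted p = 0.00266) and 2.4 ± 0.53 (SE; adjusted p = 0.0171). The aminotransferase psat1 had 12.7, 8.28 and 21.7 FPKM in estradiol males and 19.1, 15.14 and 5.80 FPKM in estradiol females, against 0.554, 0.727 and 0.726 FPKM in DMSO males and 2.98, 4.71 and 2.62 FPKM in DMSO females. All estradiol libraries were above all DMSO libraries, and DMSO males were lowest. The dehydrogenase phgdh had 0.397 to 17.6 FPKM (median 5.71) under estradiol, against 0 to 1.3 FPKM (median 0.0768) under DMSO, with overlapping ranges and its lowest estradiol value in male replicate 2. With the ovary level as a covariate the log2 change of phgdh was 1.14 (adjusted p = 0.212), and without the oocyte-rich libraries, with the filter over all 12 libraries, it was 1.03 (adjusted p = 0.209). The third rise was tyms, the thymidylate synthase of DNA precursor synthesis (2.04 ± 0.55 (SE; adjusted p = 0.0356, and 0.441 without the oocyte-rich libraries)), whose call was lost without any 1 of 9 libraries (adjusted p up to 0.083, without male DMSO replicate 1). The fall was cbsb (-2.0 ± 0.47 (SE; adjusted p = 0.0212, and 0.0992 without the oocyte-rich libraries)), lost without any 1 of 3 DMSO libraries (adjusted p up to 0.0566, without male DMSO replicate 1).

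The cell cycle list had the largest share of rises. Of 71 genes tested, 46 rose and none fell, with a median log2 change of 2.0, 1.94 in males and 2.01 in females. The share called was 64.8%, against 10.4% of all genes tested. The mitotic motor gene kif11 had 24.4, 13.6 and 8.01 FPKM in estradiol males and 4.10, 8.43 and 6.89 FPKM in estradiol females, against 0.261, 0.322 and 0.424 FPKM in DMSO males and 1.16, 3.07 and 0.453 FPKM in DMSO females. All estradiol libraries were above all DMSO libraries, and the log2 change was 2.56 ± 0.41 (SE; adjusted p = 0.00258). Of the 71 genes, kif11 alone lay higher under estradiol without overlap, against 1.22% of all genes tested. The ribonucleotide reductase subunit rrm2, which makes DNA precursors, had 266, 2.73 and 94.4 FPKM in estradiol males and 208, 68.0 and 79.4 FPKM in estradiol females, against 0.441, 0.844 and 1.32 FPKM in DMSO males and 8.05, 19 and 2.45 FPKM in DMSO females. Estradiol replicates 1 and 3 were high in both sexes, while male estradiol replicate 2 lay within the DMSO range, and the log2 change was 4.13 ± 0.84 (SE; adjusted p = 0.0108, and 0.16 without the oocyte-rich libraries). The kinase gene cdk2 had 2.56 to 16.8 FPKM (median 11.7) under estradiol, against 0.800 to 2.91 FPKM (median 1.66) under DMSO, a log2 change of 2.0 ± 0.34 (SE; adjusted p = 0.00398, and 0.086 without the oocyte-rich libraries). The flap endonuclease fen1, which finishes DNA copies, had 2.45 to 36.0 FPKM (median 25.8) under estradiol, against 0.961 to 5.37 FPKM (median 3.49) under DMSO, a log2 change of 2.29 ± 0.46 (SE; adjusted p = 0.0097, and 0.112 without the oocyte-rich libraries).

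Cell cycle levels moved with the ovary and oocyte list in part. The mean log2 level of the 75 cell cycle genes was 4.23, 0.697 and 2.95 in estradiol males and 3.54, 2.98 and 3.06 in estradiol females, against 0.527 to 0.881 in DMSO males and 0.843 to 1.96 in DMSO females. Male estradiol replicate 2, with an ovary level of 1.17, was within the DMSO males, while kif11 was at 13.6 FPKM there. Female estradiol replicate 2 had the lowest ovary level of the estradiol libraries (0.121) and a cell cycle level above all DMSO libraries. The lists share 1 gene, ccnb1. Without the 4 oocyte-rich libraries 39 of the 71 cell cycle genes passed the filter on low values and 2 rose, with a median of 0.90. With the filter over all 12 libraries all 71 were tested and 1 rose, with a median of 0.94. With the ovary level as a covariate 1 rose, with a median of 1.09. Without the 2 intestine-rich female DMSO libraries, whose cell cycle levels were 1.12 and 1.96, 4 rose. Rises numbered 8 without female DMSO replicate 3 and 63 without male estradiol replicate 2. On the ovary list itself 2 of 38 genes rose (median 2.98), ccnb1 and zp2l2, a zona pellucida gene of the egg coat. Calls made up 5.26% of this list, against 10.4% of all genes tested. In the same limma fit 37 of the 38 had an unadjusted p under 0.05, against 2973 of all 9190 genes tested. The log2 change was positive for 37 of the 38, against 4850 of all 9190 genes tested. Leaving out 1 library at a time gave 0 to 36 rises on this list. Without the oocyte-rich libraries, adjusted p was 0.554 for ccnb1 and, with the filter over all 12 libraries, 0.93 for zp2l2.

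**Figure D5:**
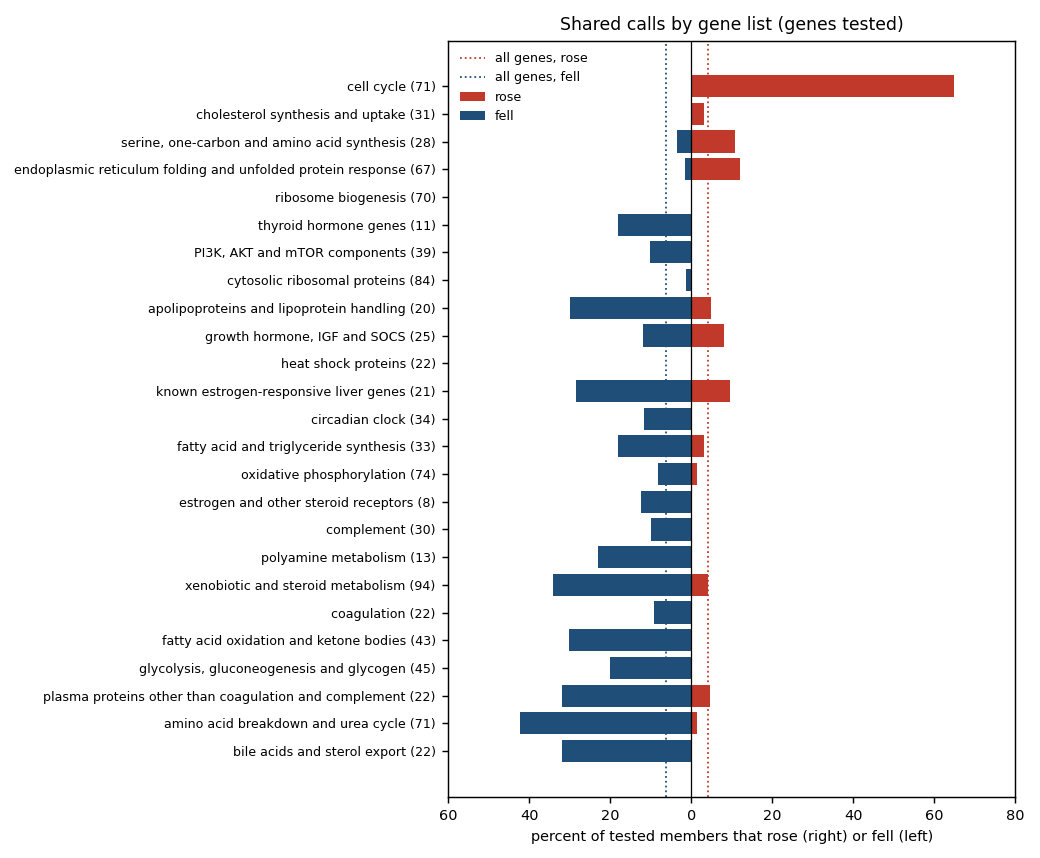
Percent of the tested members of each gene list (number in brackets) that rose (red, to the right) or fell (blue, to the left) with the same sign in both sexes, in order of the median log2 change. Dotted lines mark all genes tested, 4.1% for rises and 6.31% for falls. Cell cycle rises (46 of 71) and amino acid breakdown falls (30 of 71) reach furthest.

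On the list of estrogen and other steroid receptors, 1 of 8 genes tested was a shared call (12.5%, against 10.4% of all genes tested). The nuclear estrogen receptor esr1 had 4.40, 36.4 and 7.35 FPKM in estradiol males and 10.3, 13.3 and 11.9 FPKM in estradiol females, against 1.35, 1.063 and 0.785 FPKM in DMSO males and 88.5, 37.0 and 65.5 FPKM in DMSO females. It was higher under estradiol in males (2.54 on the log2 scale) and lower in females (-2.25), so it is not among the shared genes. For the beta-type receptors the log2 change was 0.18 ± 0.32 (SE; adjusted p = 0.73) in esr2a and -1.34 ± 0.44 (SE; adjusted p = 0.062) in esr2b. The androgen receptor ar was at -1.49 ± 0.46 (SE; adjusted p = 0.0544) and the progesterone receptor pgr at -0.91 ± 0.34 (SE; adjusted p = 0.0896). The glucocorticoid receptor nr3c1 was at -0.31 ± 0.37 (SE; adjusted p = 0.593). The one receptor called was esrra, an orphan receptor that drives mitochondrial genes. It had 1.86, 6.06 and 1.32 FPKM in estradiol males and 0.636, 0.614 and 2.03 FPKM in estradiol females, against 5.03, 5.02 and 8.04 FPKM in DMSO males and 6.00, 5.46 and 15.2 FPKM in DMSO females. The groups overlapped through male estradiol replicate 2, the log2 change was -1.55 ± 0.39 (SE; adjusted p = 0.0257, and 0.315 without the oocyte-rich libraries), and the call was lost without any 1 of 4 libraries (adjusted p up to 0.0585, without male estradiol replicate 3). The transcript of gper1, the receptor in the title, was listed at 0 to 0.0177 FPKM under estradiol and 0 to 0.049 FPKM under DMSO and was not tested.

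Of 21 other genes known to respond to estrogen in fish liver, 2 rose and 6 fell (median -0.50). The share called was 38.1%, against 10.4% of all genes tested. Beside cish the rise was tfa, transferrin, the iron carrier of plasma. The deposited values of tfa were 3919, 16527 and 9637 FPKM in estradiol males and 2076, 5761 and 7012 FPKM in estradiol females, while it was listed at 0 in all 6 DMSO libraries. An exact 0 in such a table can be a failed estimate, so no fold is given. The same holds for the yolk protein precursors: vtg1, vtg2 and vtg4 to vtg7 stood at 0 in all 6 estradiol libraries and all 3 DMSO female libraries. In DMSO males vtg1 was listed at 310.3, 41.1 and 35.0 FPKM and vtg2 at 78.4, 29.7 and 18.7 FPKM. The astacin-type protease genes c6ast3 and c6ast4 fell, c6ast4 with an adjusted p of 0.0764 without the oocyte-rich libraries. The first had 4.51, 11.2 and 3.45 FPKM in estradiol males and 1.65, 3.54 and 0.837 FPKM in estradiol females, against 215, 105 and 211 FPKM in DMSO males and 314, 38.1 and 149 FPKM in DMSO females, with no overlap and a log2 change of -5.06 ± 0.49 (SE; adjusted p = 8.31e-05). Replicate 2 was highest within each estradiol group and lowest within each DMSO group for c6ast3, and within the estradiol groups replicate 2 was also the highest for the exocrine pancreas list.

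Exocrine pancreas genes were the most uniform of the falls. Of 19 tested, 18 fell, all of them without overlap between the treatments, with a median log2 change of -4.92, -4.55 in males and -5.55 in females. Over all genes tested 6.31% fell, and 3.42% were lower without overlap. All 18 fell in each of the 12 fits that left out 1 library and with the ovary level as a covariate, and 16 fell without the 4 oocyte-rich libraries. The carboxypeptidase cpa5, a digestive enzyme, had 5.78, 25.3 and 3.72 FPKM in estradiol males and 0.936, 19 and 0.929 FPKM in estradiol females, against 351, 262 and 209 FPKM in DMSO males and 484, 95.1 and 293 FPKM in DMSO females, a log2 change of -5.33 ± 0.65 (SE; adjusted p = 0.000422). With the level of the pancreas list as a covariate 1 gene was called over the whole table. Since that level does not overlap between the treatments, it and the treatment cannot be told apart. Of the other organ lists, 3 of 19 intestine genes fell, among them rbp2a, a retinol-binding protein gene. It had 28.1 to 291 FPKM (median 114) under estradiol, against 1415 to 3380.3 FPKM (median 2379) under DMSO, a log2 change of -4.59 ± 0.57 (SE; adjusted p = 0.000444). The share called was 15.8% on the intestine list and 44.4% on the red blood cell list, against 10.4% of all genes tested. Red blood cell genes fell in 4 of 9 cases, with the globin genes hbba2 (listed as zgc:92880) and hbaa2 (listed as si:ch211-5k11.6) at -3.83 ± 0.72 (SE; adjusted p = 0.00698, and 0.159 without the oocyte-rich libraries) and -2.88 ± 0.52 (SE; adjusted p = 0.00556, and 0.177 without the oocyte-rich libraries).

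Components of the PI3K and mTOR pathway, named in the title, showed 4 falls and no rise among 39 genes, with a median of -0.27. The share called, 10.3%, was near the 10.4% of all genes tested, of which 6.31% fell. The 4 were deptor, an inhibitor of mTOR, eif4ebp3l, a repressor of translation that mTOR switches off, ptena, the phosphatase that reverses PI3K, and pik3r1, its regulatory subunit. The inhibitor deptor had 4.75 to 37.4 FPKM (median 13.7) under estradiol, against 25 to 68.5 FPKM (median 30.8) under DMSO, a log2 change of -1.33 ± 0.33 (SE; adjusted p = 0.0257). The repressor eif4ebp3l had 23.4 to 117 FPKM (median 41.9) under estradiol, against 85.4 to 210.2 FPKM (median 129) under DMSO, a log2 change of -1.54 ± 0.42 (SE; adjusted p = 0.0366). The ranges of both overlapped between the treatments. For ptena the log2 change was -1.09 ± 0.31 (SE; adjusted p = 0.0418) and for pik3r1 -1.74 ± 0.48 (SE; adjusted p = 0.0397). Each of these calls was lost without any 1 of 5 (deptor), 9 (eif4ebp3l and pik3r1) or 10 (ptena) libraries, and adjusted p then reached 0.064, 0.082, 0.0937 and 0.0947 for deptor, eif4ebp3l, pik3r1 and ptena. None of the 4 was called without the oocyte-rich libraries or with the ovary level as a covariate. Without male estradiol replicate 2 the list held 9 falls. After rescaling it held 2 rises and no fall, with a median of 0.08 against 0.39 for all genes.

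Several lists had a share of calls near or below that of all genes tested. Over all genes tested 10.4% were called, against 9.46% of the oxidative phosphorylation list and 11.8% of the circadian list. Among 84 cytosolic ribosomal protein genes 1 fell, rps8b, and among 70 ribosome biogenesis genes limma called none. Of the 70, 4 had an unadjusted p under 0.05, against 2973 of all 9190 genes tested. Their median log2 change was 0.57 in males and -0.44 in females, and such opposite changes cancel in a main effect. Of these genes 19 had the same sign in both sexes, against 66.1% of all genes tested. The median of the ribosomal protein genes was -0.35, and it was 0.10 after quantile normalization and 0.06 after the rescaling that moved the median of all genes to 0.39. Their mean log2 level ran from 9.27 to 12.6 over the estradiol libraries and from 10.8 to 11.9 over the DMSO libraries. Of 31 genes of cholesterol synthesis and uptake 1 rose, idi1 (1.44 ± 0.43 (SE; adjusted p = 0.0484, and 0.0762 without the oocyte-rich libraries)), with list medians of 1.89 in males and -0.50 in females. Its call was lost without any 1 of 9 libraries (adjusted p up to 0.108, without male DMSO replicate 1). No gene of 22 on the heat shock list was called by limma. An unadjusted p under 0.05 was reached by 5 of the 22, against 2973 of all 9190 genes tested. Of 74 oxidative phosphorylation genes 6 fell and 1 rose (median -0.65), with 0 falls without male DMSO replicate 1 and 19 without female estradiol replicate 1. The log2 change was positive for 5 of the 74, against 4850 of all 9190 genes tested. Estradiol libraries lay below DMSO libraries without overlap for 9 of the 74, against 3.42% of all genes tested. The circadian list held 4 falls of 34 (median -0.52), of which hlfa had 2.33 to 7.98 FPKM (median 6.71) under estradiol, against 13.4 to 29.5 FPKM (median 20.8) under DMSO, a log2 change of -1.81 ± 0.32 (SE; adjusted p = 0.00534, and 0.0737 without the oocyte-rich libraries).

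A few large falls lay outside the metabolic lists. The matrix protein gene tgfbi had 1.75, 0.948 and 1.44 FPKM in estradiol males and 0.229, 1.41 and 1.58 FPKM in estradiol females, against 35.3, 26.8 and 25.4 FPKM in DMSO males and 19.4, 18.9 and 23.7 FPKM in DMSO females. Its SE was the smallest among the 15 largest falls, the groups did not overlap, and the log2 change was -3.56 ± 0.25 (SE; adjusted p = 1.18e-05). The collagen prolyl hydroxylase gene p4ha1b had 2.38 to 36.0 FPKM (median 5.23) under estradiol, against 63.2 to 108 FPKM (median 72.4) under DMSO, a log2 change of -3.34 ± 0.47 (SE; adjusted p = 0.000996, and 0.0764 without the oocyte-rich libraries). The methyltransferase domain gene comtd1 had 1.41 to 34.7 FPKM (median 15.2) under estradiol, against 131 to 582 FPKM (median 279.7) under DMSO, a log2 change of -4.28 ± 0.55 (SE; adjusted p = 0.000564). The gene ppdpfa, known from pancreas development in zebrafish, had 9.05 to 59.7 FPKM (median 44.0) under estradiol, against 154 to 926 FPKM (median 475) under DMSO, a log2 change of -3.59 ± 0.55 (SE; adjusted p = 0.00181, and 0.0606 without the oocyte-rich libraries), beside the lower exocrine pancreas genes. The light chain of major histocompatibility complex class I, b2m, had 36.5 to 306 FPKM (median 126) under estradiol, against 459.8 to 895 FPKM (median 633) under DMSO, a log2 change of -2.44 ± 0.41 (SE; adjusted p = 0.0033). The vascular receptors flt1 and kdrl were called at -1.93 ± 0.43 (SE; adjusted p = 0.0171, and 0.302 without the oocyte-rich libraries) and -1.39 ± 0.39 (SE; adjusted p = 0.041, and 0.307 without the oocyte-rich libraries), and kdrl lost its call without any 1 of 9 libraries (adjusted p up to 0.0937, without male DMSO replicate 1).

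Of the 110 called genes followed through the alternatives, 77 were called in each of the 12 fits that left out 1 library, and 44 with the ovary level as a covariate. Rises among the 44 included cish, lipg, g3bp2, hmgn3, hsp90b1, igfbp3, kif11, psat1 and slc25a1a. Without the oocyte-rich libraries 52 of the 110 were called, 53 were not and 5 could not be fitted, and with the filter over all 12 libraries 53 were called and 57 were not. Among those called in every alternative run for them but the pancreas covariate were sat2a, g0s2, c6ast3, dao.3, apoa1a, slc27a2a, dio1, tgfbi, abcg5, gstal, gldc, ces3, pdia2 and rbp2a. The alternatives include each sex fitted alone and both fits that leave out libraries rich in transcripts of other organs. The fit without the 2 intestine-rich DMSO female libraries keeps only replicate 3 of that group, so its counts by list are left out here. After the rescaling named above, the falls numbered 10 of 71 in amino acid breakdown and 15 of 94 in xenobiotic metabolism. They numbered 2 of 43 in fatty acid oxidation, 6 of 45 in glycolysis and 5 of 22 in sterol export. The rises were then 14 of 67 in endoplasmic reticulum folding and 31 of 71 in the cell cycle. Over all 9190 genes tested, 208 fell and 332 rose in that fit.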

How the data were processed

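Liver RNA of 12 zebrafish libraries was measured, 3 per sex and treatment. Reads were trimmed with cutadapt, aligned with TopHat2 2.0.11 and quantified with Cufflinks 2.2.1 on danRer7, per the submitters' processing notes. The authors deposited 1 value per gene and library, taken here as FPKM from its range and from Cufflinks, since the header names no unit. Depth is unknown, and any scaling between libraries is not given in the sources used here. Treatment and library number run together (7 to 12 for DMSO, 19 to 24 for estradiol), so a run difference cannot be told apart from treatment.

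Of 14581 genes, 9190 with at least 1 FPKM in 3 libraries were fitted as log2(FPKM + 1) on treatment and sex with limma 3.58.1 (R 4.3.3, intensity trend, Benjamini-Hochberg). A fold on this scale understates the change of low genes. Within-sex and interaction contrasts came from 4 group means. On simulated data of 9190 genes, 7.32% of calls of the estradiol main effect were false, and log2 changes of 1, 2, 3 and 4 were called in 18.4%, 72.8%, 90.4% and 96.8% of genes given such a change. These changes were set only in genes with a mean log2(FPKM + 1) above 4. Errors were independent and normal, with 1 SD per gene over all 12 libraries. The shares need not hold for lower genes, or for the wider spread and the oocyte transcripts of the estradiol libraries. A set of 46 genes listed at 0 in a whole group and at 1 FPKM or more in all of another get no fold. Genes were named by rule: the 15 largest shared rises and falls without overlap that averaged 5 FPKM or more in the higher treatment, clone names and organ markers aside, up to 4 members per list by p, and all tested receptors and vitellogenins. Some are left out for length, and some are not reported here. Members, lists and tests were chosen with earlier results of these data known. List genes under other symbols were matched by RefSeq synonym (68 genes). The 29 alternatives changed the pseudocount, filter, scaling, model and libraries. Tables and figures used Python 3.11.15, pandas 2.3.3, numpy 2.4.6 and matplotlib 3.10.9.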

Additional observations from a re-analysis of the deposited data

Results flagged for a closer look

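The test of a different response in males and females (interaction, adjusted p under 0.05) passed in 24 of 9190 genes (0.261%), and 2 of them are shared calls. The cytochrome P450 gene cyp2k22 had 0.0523, 0.118 and 0.0987 FPKM in estradiol males and 0.141, 0.0313 and 0.0187 FPKM in estradiol females, against 890.2, 891 and 546 FPKM in DMSO males and 12.3, 7.70 and 0.957 FPKM in DMSO females. Its level fell in both sexes, by 9.44 in males and by 2.52 in females on the log2 scale, and the female minus male difference was 6.92 (adjusted p = 0.0025). DMSO males stood far above DMSO females, and all estradiol libraries were near 0. Without the oocyte-rich libraries the adjusted p of its main effect was 0.0539.

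The steroid dehydrogenase gene hsd17b3, known in mammals for making testosterone and named here after its values were seen, had 0.323, 0.223 and 0.0519 FPKM in estradiol males and 0.190, 0.0171 and 0.0154 FPKM in estradiol females, against 117, 51.8 and 36.6 FPKM in DMSO males and 0.240, 0.0497 and 0.187 FPKM in DMSO females. Its log2 change was -5.69 in males and -0.11 in females, a difference of 5.58 (adjusted p = 0.000702). All 3 DMSO males were above 30 FPKM, and the other 9 libraries were below 1 FPKM. The call of its main effect therefore rests on the males, although the sign is the same in both sexes, and its adjusted p was 0.187 without the oocyte-rich libraries.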

How the results depend on the processing

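Over fits that each left out 1 library, shared calls numbered 402 to 2501, rises 96 to 1336 and falls 306 to 1165. Rises numbered 223 with a filter of 5 FPKM and 194 with none. Library totals without the 6 vitellogenins and the 10 highest genes (rescaling) gave 540 calls with 208 falls, and 61.5% of calls then rose. Males alone gave 220 calls (65 rises, 155 falls) and females alone 267 (90 and 177). The ovary level as a covariate gave 161 (38 and 123) and the pancreas level 1 (1 and 0). Leaving out the 4 oocyte-rich estradiol libraries gave 233 (67 and 166; 216, 67 and 149 with the filter over all 12 libraries, added later) and leaving out the 2 intestine-rich DMSO libraries 278 (49 and 229). The cause was not tested, beyond fewer libraries or an added term. The pseudocount of 0.1 (996), quantile (973), median-of-ratios (1134), 4 group means (1052), no intensity trend (971) and dropping genes listed at 0 (945) kept the count within 1.5 times.

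Signs turned, without a call, under the pancreas covariate for c8a (0.059), ccnb1 (-2.12), nr3c1 (0.41), pik3r1 (0.58), slc4a1a (0.26), sst1.1 (0.25) and zp2l2 (-2.05). That of nr3c1, uncalled throughout, also turned after rescaling (0.11), with the ovary covariate (0.26) and without the oocyte-rich libraries (0.27 under either filter).

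Deviations from the group mean had r of -0.433 to 0.573 (mean 0.000737) between same-numbered libraries of different groups. Between differently numbered libraries r was -0.532 to 0.365 (mean -0.000971). Estradiol males and females of the same number had r of 0.494, 0.573 and 0.009 for replicates 1, 2 and 3. Replicate 1 of 1 sex against replicate 2 of the other had r of -0.521 and -0.532 there. What the numbers share across the sexes under estradiol was not tested. A replicate block gave 947 shared calls, 421 up and 526 down.

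The share of genes called in 1 sex that did not overlap in the other was rerun under alternatives chosen after the data were seen. For male rises it was 28.6% without a filter (8.33% of all genes), 32.4% with quantile normalization (13.2%) and 30.6% after rescaling (17.3%). For female rises it was 28.6% with a pseudocount of 0.1 (18.5%), 40% without a filter (14.6%) and 29.4% after rescaling (25.2%). Male falls gave 62.4% with quantile normalization (14.7%) and 53.8% after rescaling (8.59%), and female falls 69.2% after rescaling (8.14%). Leaving out 1 library gave 20 to 33.3% for male rises (9.98%), 47.1 to 74.2% for male falls (18.8%), 16.7 to 100% for female rises (18.5%) and 22.1 to 100% for female falls (11.4%), where each 100% is 1 gene. For male rises each 33.3% is 2 of 6 genes, and the 20% is 2 of 10. For female rises the gene behind each 100% is tfa, which was listed at 0 in every DMSO library.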

Other observations

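The main effect was also called for pmepa1 and vtg2, whose changes did not share a sign. In the deposited table pmepa1 had 7338, 45609 and 35418 FPKM in estradiol males and 21735, 16838 and 22044 FPKM in estradiol females, against 26409, 15388 and 35286 FPKM in DMSO females. It was listed at 0 in all 3 DMSO males, and no fold is given because of that exact 0.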
